A study of Mus musculus with 11 samples.

Results

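This report describes 9 genes that encode proteins of the myelin sheath or make its lipids, Mbp, Mog, Mag, Mobp, Cnp, Mal, Cldn11, Opalin and Ugt8a, in nuclei of the mouse hindbrain and upper cord during experimental autoimmune encephalomyelitis (EAE). The members were chosen by symbol, and all 9 were found among the 25827 genes of the count matrices. The single-nucleus libraries numbered 11: 4 from Il12rb2fl/fl mice with EAE, 4 from NestinCre/+Il12rb2fl/fl mice with EAE, 2 from naive Il12rb2fl/fl mice and 1 from a naive NestinCre/+Il12rb2fl/fl mouse. Every group carried floxed Il12rb2, the gene of an interleukin-12 receptor chain, on both alleles, so the controls were floxed mice without Cre. Nestin-Cre acts in neural precursors, so its target cells include neurons, astrocytes and oligodendrocytes together, and an oligodendrocyte in these mice was not the only recombined cell. All mice were males of 8 to 12 weeks. EAE had been induced with the myelin oligodendrocyte glycoprotein peptide MOG35-55 in complete Freund's adjuvant plus pertussis toxin, tissue was taken on day 10, and naive mice had not been immunized. Cerebellum, brainstem and upper cervical cord went into each library, and nuclei were sorted on Hoechst alone.

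Myelin is the lipid-rich membrane that oligodendrocytes wrap around axons. Oligodendrocyte progenitor cells divide, pass through a newly formed stage and become mature oligodendrocytes, and the genes for myelin proteins are switched on along that path. The transcription factors MYRF and SOX10 are known to act on many of these genes. In EAE the immune system is turned against myelin, and in this model the immunizing peptide comes from the product of Mog itself.

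The libraries held 13120 to 22951 barcodes and 4.08e+07 to 8.61e+07 UMIs (unique molecular identifiers, 1 per counted transcript molecule) each. After filters on genes, mitochondrial UMIs and doublets, 159600 of 189709 barcodes remained as nuclei, with a median of 1826 to 3241 UMIs per library. Clustering without the members and other myelin genes gave 21 named classes, and 35.6% of nuclei stayed unnamed. Any pair of libraries shared 47 to 140 barcodes, at most 0.692% of the smaller library. Il12rb2 itself was detected at 10.1 to 15.4 CPM (UMIs of a gene scaled to a fixed total of UMIs in the class and library) in the neural classes of Il12rb2fl/fl EAE libraries and at 7.27 to 14.7 CPM in those of NestinCre/+Il12rb2fl/fl EAE libraries. These ranges overlapped, but a gene-level count does not show which part of the gene a UMI came from, so it does not check the labels. The libraries came from 3 sequencing runs: 6 EAE libraries in run 1, replicate 4 of both EAE groups and naive Il12rb2fl/fl replicate 2 in run 2, and the other 2 naive libraries in run 3. In EAE each genotype had as many mice as libraries, and the naive libraries of run 3 came from 1 mouse each. For the naive library of run 2 the number of mice is not given in the sources used here. Every p-value below measures the spread between these libraries.

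Mature oligodendrocytes were recognised by 10 markers that include no member, such as St18, Prr5l and Dock10, and 9 of these 10 were highest there among all classes. The newly formed stage had its highest level for 9 of 9 markers, and progenitors for 8 of 10. Clusters were named from these same markers, so these counts describe the classes and do not test their names. A library held 1059 to 3430 mature oligodendrocytes, 60 to 130 progenitors and 2 to 35 newly formed cells. The newly formed stage was therefore read only in the 6 libraries with at least 10 such nuclei.

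The promoters of 4 members are shown because they hold short motifs of the regulators named above. Each line gives the bases before the annotated start of the canonical transcript, 5′ to 3′ on the gene's own strand (GRCm39, GENCODE annotation), with the bases next to the start left out where an exon of another transcript covers them. Capitals mark matches, on either strand, to the MYRF core CTGGCAC or CTGGTAC or to the SOX core ACAAAG.
Opalin, chr19:41065554-41065802, minus strand: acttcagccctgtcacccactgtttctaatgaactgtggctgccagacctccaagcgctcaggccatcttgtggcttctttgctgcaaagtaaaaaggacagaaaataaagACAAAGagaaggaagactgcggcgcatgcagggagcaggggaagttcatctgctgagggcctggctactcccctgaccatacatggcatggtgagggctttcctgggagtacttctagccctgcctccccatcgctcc
Mog, chr17:37334351-37334600, minus strand: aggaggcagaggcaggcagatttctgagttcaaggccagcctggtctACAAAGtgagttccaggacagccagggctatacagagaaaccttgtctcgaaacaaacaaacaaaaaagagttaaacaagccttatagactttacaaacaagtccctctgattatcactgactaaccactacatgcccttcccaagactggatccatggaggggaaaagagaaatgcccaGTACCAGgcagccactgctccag
Cnp, chr11:100465480-100465729, plus strand: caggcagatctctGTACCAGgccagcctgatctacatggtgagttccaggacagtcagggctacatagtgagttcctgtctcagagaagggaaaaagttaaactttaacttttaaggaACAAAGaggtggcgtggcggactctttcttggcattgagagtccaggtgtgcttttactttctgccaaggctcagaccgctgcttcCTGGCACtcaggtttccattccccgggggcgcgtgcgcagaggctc
Mobp, chr9:119978493-119978683, plus strand: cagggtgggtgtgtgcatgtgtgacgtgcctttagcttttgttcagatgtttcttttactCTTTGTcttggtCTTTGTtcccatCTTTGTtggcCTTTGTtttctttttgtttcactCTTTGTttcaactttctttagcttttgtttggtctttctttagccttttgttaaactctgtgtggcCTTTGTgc
The Cnp promoter held both forms of the MYRF core and 1 SOX core, the Mog promoter held 1 of each kind, and the Opalin promoter held a single SOX core 139 to 134 bases before the start. The Mobp stretch held 6 SOX cores, all on the opposite strand. Over 21571 promoters of 250 bases, 5.79% held a MYRF core of either form and 15.9% a SOX core. No match was found in the windows of Mag, Mal, Cldn11 and Ugt8a, which says only that these letters are not in those 250 bases. The windows of Mag, Mobp and Ugt8a lie inside the annotated genes, which begin farther upstream than the canonical transcript. The Mbp promoter is not shown. Repeated sequence was not left out of the search. A match is a run of letters and does not show that a factor binds there.

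The members marked mature oligodendrocytes strongly, which is their known place of expression. All 9 members together made up 10036 to 11939 CPM of the mature oligodendrocytes' UMIs in a library, and these nuclei held 66.7% to 82.0% of all member UMIs of the library. For 8 of the 9 members mature oligodendrocytes had the highest level of the 21 classes. The exception was Mal, a proteolipid of membrane sorting, whose median of 410 CPM in mature oligodendrocytes came second to 548 CPM in endothelial cells, a value that rests on 2 libraries, at 358 and 739 CPM. Across the 21 classes the members' log2 levels had pairwise Pearson correlations of 0.33 to 0.97 over 36 pairs, with a median of 0.80, and of 0.59 to 0.97 over the 28 pairs without Mal. These classes share libraries, so the correlations only describe the pattern. Among 2044 other genes with at least 100 CPM in mature oligodendrocytes, those most like the members by mean correlation included Septin7 (0.79), the sphingolipid hydroxylase gene Fa2h (0.78), the tubulin gene Tubb4a (0.78) and Sec14l5 (0.78).

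The order of the members by level depended on the scale, and whether dividing by a length makes them comparable was not tested. In plain CPM, Mbp (4020) led, followed by Mobp (2117), Mag (1331) and Mog (1123), with Opalin (265) and Cnp (235) last. Intronic reads were counted, so the whole gene is one yardstick: by CPM per kilobase of gene, Mog (87.6) and Mag (83.1) led, followed by Mobp (56.4), Mbp (36.4) and Cldn11 (29.4), with Mal (17.5), Cnp (13.7), Opalin (13.04) and Ugt8a (10.1) last. By CPM per kilobase of exon, Mbp (1865) and Mobp (1352) led, Mag (663) and Mog (598) followed, and Opalin (102) and Cnp (99.8) came last. Mbp therefore moved from behind Mog, Mag and Mobp to the first place with the choice of length. All scales are medians over the 11 libraries. Mbp spans 110557 bases of chromosome 18 (82493207 to 82603763), whereas Mog covers 12830 bases of chromosome 17 (37321521 to 37334350).

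**Figure D1:**
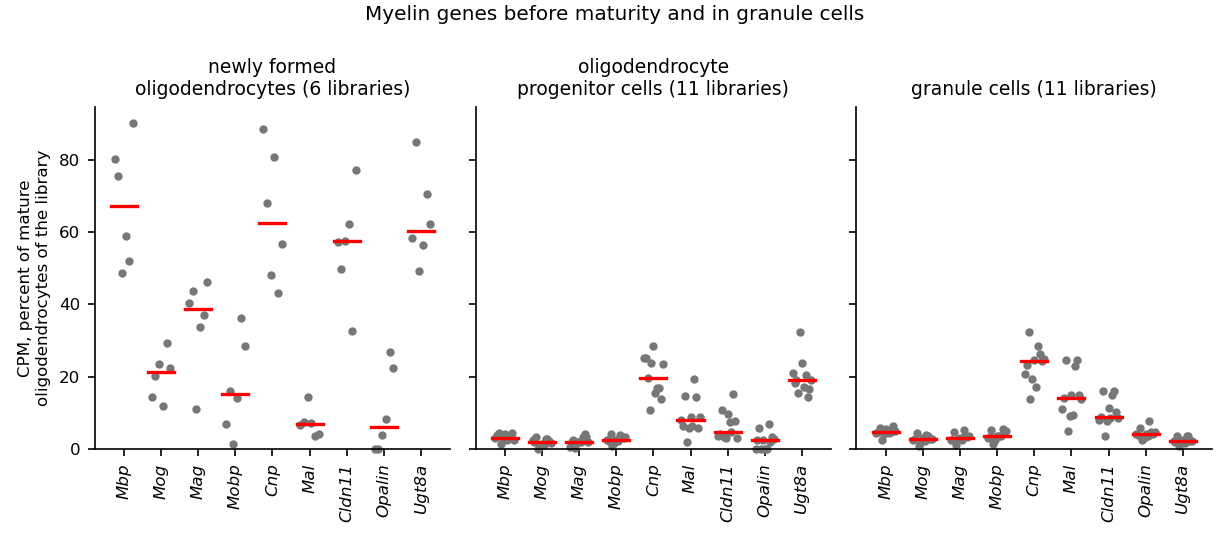
Level of each of the 9 members in newly formed oligodendrocytes (6 libraries), progenitors and granule cells (11 libraries each), as a percent of the CPM in mature oligodendrocytes of the same library, with points as libraries and red lines as medians. Ugt8a lies at 14.2% to 32.3% in progenitors and at a median of 2.17% in granule cells, while the medians of the other members are no higher in progenitors than in granule cells.

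Along the lineage the members differed in when they appeared. Ugt8a, whose product makes galactosylceramide, the main glycolipid of myelin, was the single member with a clear progenitor level. In progenitors of the 4 Il12rb2fl/fl EAE libraries it stood at 166, 152, 169 and 135 CPM, and in those of the 4 NestinCre/+Il12rb2fl/fl EAE libraries at 197, 144, 164 and 152 CPM. The naive libraries lay at 120.0 and 131 CPM (Il12rb2fl/fl) and 144 CPM (NestinCre/+Il12rb2fl/fl). Progenitors thus held a median of 19.1% (range 14.2% to 32.3%) of the mature level, and exceeded granule cells, cerebellar neurons that make no myelin, by a median factor of 9.92 (4.14 to 22.5) in 11 of 11 libraries. Mbp, the gene of myelin basic protein, lay in progenitors at a median of 0.650 times its granule cell level and above it in 0 of 11 libraries. Cnp, the gene of a myelin phosphodiesterase often used as an early lineage marker, exceeded granule cells in 4 of 11 libraries. Mag, Mobp and Opalin did so in 1 library each, and Mog, Mal and Cldn11 in none. In CPM, a progenitor level above the granule cell background was thus not shown for these 8 members at this depth. That background differed between classes. The median Mbp level was 136 CPM in progenitors, beside 201 in microglia and 187 in granule cells, but 90.5 in molecular layer interneurons and 59.5 in excitatory neurons. The scale mattered, as progenitors were the deeper class. A Cnp UMI was seen in a median of 14.0% of progenitors and 9.63% of granule cells, and an Mbp UMI in 33.7% and 28.7%. In nuclei thinned to 1000 UMIs these shares were 3.08% and 5.67% for Cnp, and 14.0% and 18.2% for Mbp.

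In newly formed oligodendrocytes the members fell into an order. As a median over 6 libraries, Mbp had reached 67.2% of its mature level, Cnp 62.5%, Ugt8a 60.4% and Cldn11, the gene of the tight junction protein of myelin, 57.5%. Mag, an adhesion molecule on the inner myelin face, stood at 38.7% and Mog, a surface protein of the outermost layer, at 21.3%. Mobp was at 15.1%, Mal at 6.82% and Opalin, the gene of a sialylated membrane protein of oligodendrocytes, at 6.11%. The ranges over these EAE and naive libraries were wide, at 48.7% to 90.2% for Mbp and 10.9% to 46.1% for Mag. Those of Mobp and Opalin were 1.27% to 36.3% and 0% to 26.9%. For Mbp the newly formed levels were 3523, 2971 and 1853 CPM in Il12rb2fl/fl EAE replicates 1 to 3, 2816 and 2205 CPM in the naive Il12rb2fl/fl libraries, and 4541 CPM in the naive NestinCre/+Il12rb2fl/fl library. For Opalin these stages gave 0, 0 and 1 UMI in the 3 EAE libraries and 5, 7 and 9 UMIs in the 3 naive ones. The newly formed level exceeded that of granule cells in 6 of 6 libraries for 6 members, in 5 of 6 for Mobp, in 3 of 6 for Opalin and in 0 of 6 for Mal. The low end of the order thus lay near or below the granule cell level. As a multiple of that level the order was another, with medians of 28.1 for Ugt8a, 14.3 for Mbp, 12.0 for Mag and 6.69 for Mog. Cldn11 (4.77), Mobp (3.82) and Cnp (2.62) followed, and Opalin (1.26) and Mal (0.408) came last. The high place of Cnp by percent therefore depended on not setting its granule cell level beside it. Neighbours in the order by percent were not tested against each other, and its first 4 members lay within 10 percentage points of one another.

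The share of nuclei with at least 1 UMI also showed the members' UMIs outside the lineage. Before and after thinning each nucleus to 1000 UMIs, Mbp was seen in a median of 99.4% and 97.0% of mature oligodendrocytes, and in 28.7% and 18.2% of granule cells, so an Mbp UMI alone does not mark an oligodendrocyte. Opalin was seen in 36.3% and 21.9% of mature oligodendrocytes and in 2.29% and 1.45% of granule cells. The other members ranged after thinning from 84.0% (Mobp) and 72.9% (Mag) through 65.2% (Mog), 49.9% (Ugt8a), 35.3% (Cldn11) and 33.1% (Mal) to 21.6% (Cnp) of mature oligodendrocytes. The median depth per library was 1651 to 3037 UMIs in mature oligodendrocytes and 1566 to 2843 in granule cells, and thinning left out 478 of 7741 mature oligodendrocytes in the NestinCre/+Il12rb2fl/fl EAE group against 203 of 6320 in the Il12rb2fl/fl EAE group.

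The first comparison asks whether deleting Il12rb2 in neural cells changed the members in mature oligodendrocytes during EAE. UMIs were summed per library, so fewer nuclei that express a gene and less RNA per nucleus cannot be told apart in them, and tested with the quasi-likelihood test of edgeR across 12704 genes in the 8 EAE libraries, with the run as a covariate. None of the 9 members passed an adjusted p of 0.05, against 222 of all genes tested (1.75%), of which 184 were higher and 38 lower in NestinCre/+Il12rb2fl/fl mice. At an unadjusted p under 0.05 the test held 1 member, Opalin, and 1390 genes. DESeq2 called 309 genes (2.43%), and Opalin was 1 of them. Of the members 3 had a log2 fold change above 0 and 6 below, with a median of -0.03 beside 0.01 over all genes tested.

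**Figure D2:**
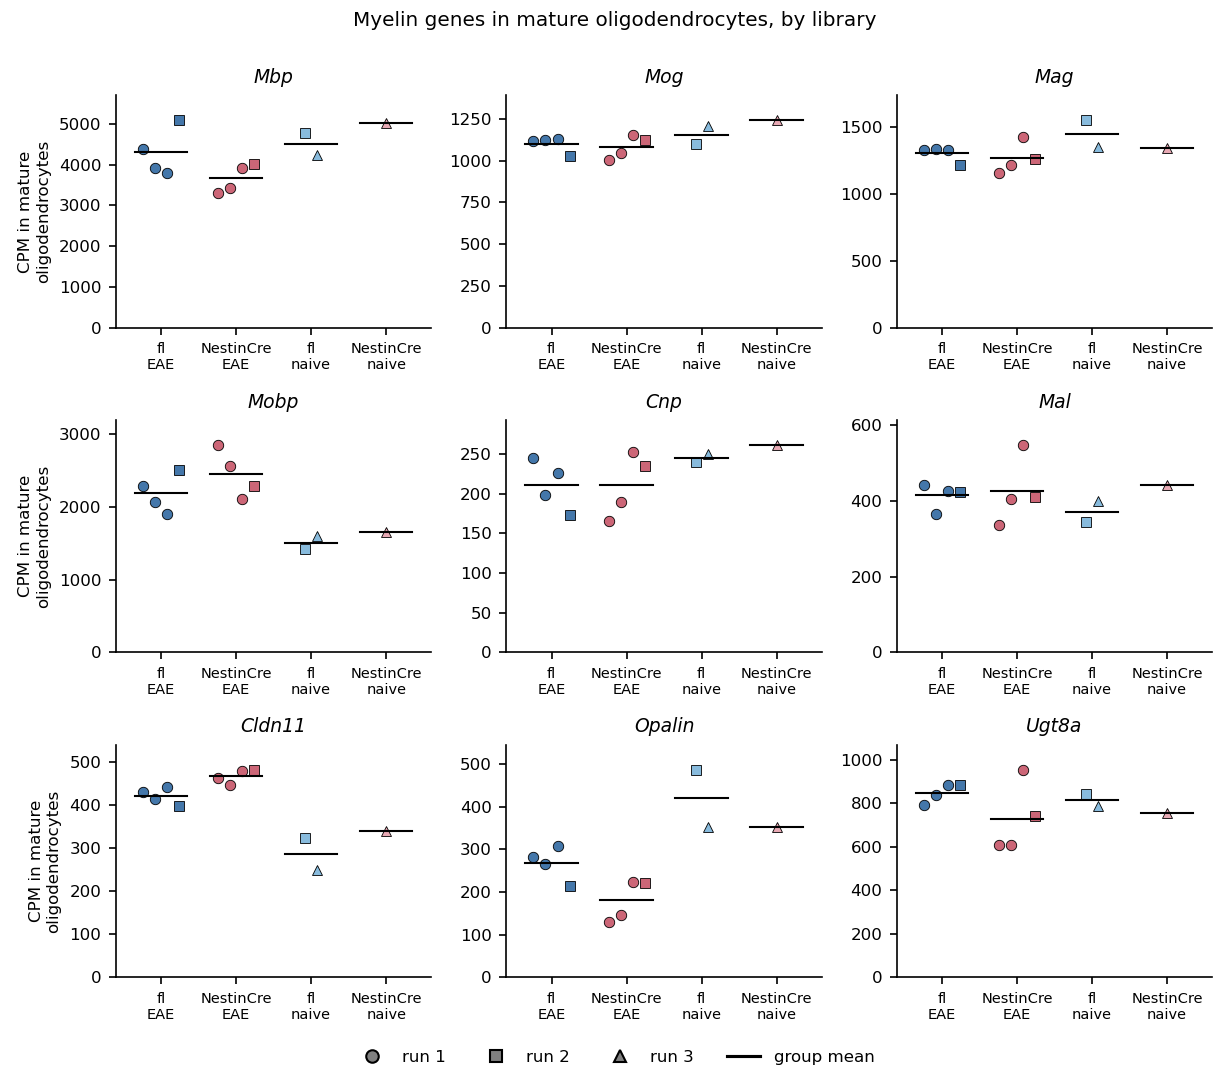
Level of each member in mature oligodendrocytes, in CPM from an axis that starts at 0, with 1 point per library, group means as lines and the sequencing run shown by the marker (fl for Il12rb2fl/fl, NestinCre for NestinCre/+Il12rb2fl/fl). Opalin is lowest in NestinCre/+Il12rb2fl/fl EAE replicates 1 and 2 (130.3 and 146 CPM) and highest in naive Il12rb2fl/fl replicate 2 (486 CPM).

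Opalin had the largest genotype difference of the members. Its levels in mature oligodendrocytes were 283, 265, 309 and 213 CPM in Il12rb2fl/fl EAE libraries and 130.3, 146, 224 and 221 CPM in NestinCre/+Il12rb2fl/fl EAE libraries, from 406 to 1879 UMIs each. Replicates 1 and 2 of the second group were the lowest of the 8, but its replicates 3 and 4 lay above replicate 4 of the first group, so the groups overlapped. Replicate 4 of each group came from run 2, at 213 and 221 CPM. The overlap thus rested on a library of another run than replicates 1 to 3. Group means came to 267 ± 40.6 and 180 ± 48.9 CPM (n = 4 libraries per group, SD). The fitted log2 ratio was -0.57 (SE 0.18, 95% interval -0.97 to -0.18), with an edgeR adjusted p of 0.196. The adjusted p by DESeq2 was 0.0293, and over all 17 alternatives it ran from 0.0293 to 0.402 while the log2 fold change stayed below 0. In thinned nuclei, Opalin was detected in 23.4%, 21.9%, 24.3% and 19.3% of mature oligodendrocytes of the first group and in 11.7%, 12.1%, 19.4% and 18.4% of the second (36.3%, 35.5%, 41.6% and 37.6% against 22.4%, 19.9%, 30.2% and 31.9% unthinned).

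Among the structural proteins, Mbp stood at 4382, 3930.2, 3804 and 5095 CPM in Il12rb2fl/fl EAE libraries and at 3311, 3421, 3925 and 4020.0 CPM in NestinCre/+Il12rb2fl/fl EAE libraries. Replicates 1 and 2 of the second group were again the lowest, and the other libraries overlapped. The log2 fold change was -0.23 (SE 0.11, interval -0.47 to 0.00, edgeR adjusted p = 0.463). Mobp, the gene of a basic protein of compact myelin, ran the other way in value, with 2288, 2071, 1901 and 2504 CPM against 2854, 2559.5, 2117 and 2294 CPM. The groups overlapped, and the log2 fold change of 0.16 had an interval of -0.12 to 0.44. Cldn11 was the single member whose groups did not overlap: 429.8, 415, 441 and 398 CPM in Il12rb2fl/fl and 463, 447, 480.2 and 482 CPM in NestinCre/+Il12rb2fl/fl EAE libraries. Its means of 421 ± 18.6 and 468 ± 16.5 CPM differed by a log2 fold change of 0.14 (SE 0.09, interval -0.05 to 0.34, edgeR adjusted p = 0.625). Of 7150 genes with a mean of at least 20 CPM, 2.95% were higher and 3.31% lower without overlap in the same comparison, so 1 of 9 members is not a result about the members.

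Mog, the source of the immunizing peptide, was at 1116, 1123, 1133 and 1031 CPM in Il12rb2fl/fl and at 1005, 1047, 1152 and 1124 CPM in NestinCre/+Il12rb2fl/fl EAE libraries. All 8 libraries lay close together, and the interval of the log2 fold change, -0.23 to 0.17, was among the narrowest of the members. Mag lay at 1219 to 1340.3 CPM and 1160.2 to 1428 CPM in these groups, with an interval of -0.26 to 0.16. Cnp ranged over 173 to 245 and 166 to 252 CPM, with an interval of -0.30 to 0.30, and Mal over 366 to 441 and 337 to 547 CPM, with an interval of -0.28 to 0.33. Ugt8a gave 793, 836, 884 and 882 CPM against 610.3, 608, 954 and 741 CPM. Its replicates 1 and 2 of the NestinCre/+Il12rb2fl/fl group were the lowest, as for Opalin and Mbp, while its replicate 3 was the highest of the 8 (log2 fold change -0.23, interval -0.54 to 0.08, edgeR adjusted p = 0.627). The widths of these intervals leave room for differences of up to about those bounds in each gene.

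**Figure D3:**
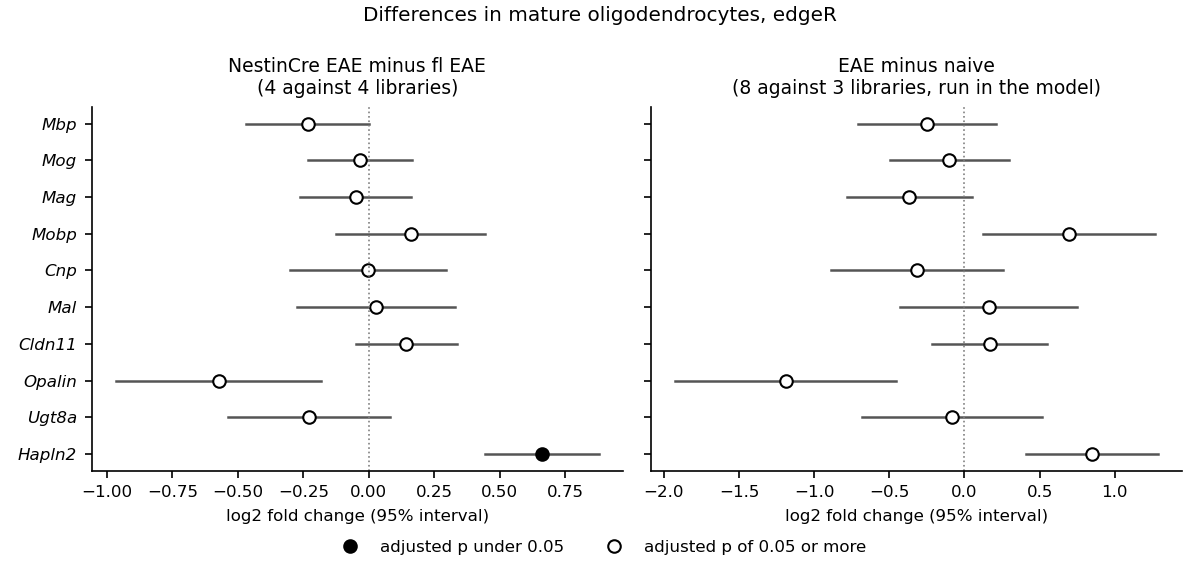
Log2 fold change of each member in mature oligodendrocytes and of Hapln2, a further sheath gene, for NestinCre EAE minus fl EAE (left) and EAE minus naive (right), with points as edgeR estimates, lines as 95% intervals and a filled point for an adjusted p under 0.05. The Opalin estimates of -0.57 and -1.19 lie farthest below 0, and Hapln2 on the left is the single filled point.

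Marker lists of many classes were summed in mature oligodendrocytes, and how many of them would separate the groups by chance was not tested. Markers of infiltrating phagocytes were higher in the mature oligodendrocyte class of every NestinCre/+Il12rb2fl/fl EAE library than of any Il12rb2fl/fl EAE library. The same held for T or NK cell markers (2.80 to 6.09 against 6.32 to 9.77 CPM), and progenitor markers were lower without overlap (424 to 540.2 against 355 to 414 CPM). The summed level of 10 infiltrating phagocyte markers was 13.1 to 20.2 CPM in Il12rb2fl/fl EAE, 20.5 to 100 CPM in NestinCre/+Il12rb2fl/fl EAE, 11.6 to 13.8 CPM in naive Il12rb2fl/fl and 15.7 CPM in the naive NestinCre/+Il12rb2fl/fl library. The EAE groups were thus only just apart, at 20.2 and 20.5 CPM. These 10 markers include Vcan, which is also a progenitor marker. The 8 neutrophil markers summed to 12.7 to 16.9 CPM and 14.4 to 97.3 CPM in the EAE groups, which overlapped, and microglia markers (124 to 168 and 164 to 180 CPM) and granule cell markers (541 to 784 and 619 to 893 CPM) also overlapped. The libraries themselves held 12 to 21 infiltrating phagocytes in the Il12rb2fl/fl EAE group and 27 to 158 in the NestinCre/+Il12rb2fl/fl EAE group. The part of any of these cells or their RNA in the Opalin values was not tested.

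The second comparison sets EAE against naive mice over both genotypes. In the fit with run as a covariate, the step between states rests on run 2, the single run with both, which held 2 EAE libraries and 1 naive library. The contrast averages the genotypes, so 0.5 of the naive genotype difference, taken within run 3, also enters it, and all 11 libraries share the estimate of spread. Again 0 of 9 members passed in edgeR, against 103 of 13581 genes (0.758%), 31 higher and 72 lower in EAE. Opalin and Mobp were under 0.05 before adjustment, as were 1519 genes. DESeq2 called 160 genes (1.18%), with Opalin as the 1 member. A fit without run, which compares all 8 EAE with all 3 naive libraries but lets run differences in, called 158 genes (1.16%) and 2 members, Opalin and Cldn11.

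Opalin was lower in every EAE library than in any naive one. The naive levels were 486 and 352 CPM in Il12rb2fl/fl and 353 CPM in NestinCre/+Il12rb2fl/fl mice, while the highest EAE value was 309 CPM. The log2 fold change was -1.19 (SE 0.33, interval -1.93 to -0.45), with an edgeR adjusted p of 0.155, and without run -0.79 with an adjusted p of 0.0460. The range of the adjusted p over 16 alternatives was 0.0258 to 0.330. None of these alternatives left out a naive library. The range therefore does not show how far the estimate rests on the naive library of run 2, the one at 486 CPM. In thinned nuclei 37.0%, 28.6% and 28.4% of naive mature oligodendrocytes had an Opalin UMI (52.9%, 45.3% and 54.3% unthinned), all above the highest EAE share of 24.3%. Lower values without overlap were found for 4.9% of the 7150 genes, and higher values for 3.47%.

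Mobp and Cldn11 were higher in every EAE library than in any naive one. For Mobp the naive values were 1422, 1601 and 1650.3 CPM and the lowest EAE value was 1901 CPM. The fitted log2 fold change was 0.70 (SE 0.27, interval 0.12 to 1.27, edgeR adjusted p = 0.317), and the adjusted p without run was 0.0551. For Cldn11 the naive values were 324, 249.6 and 339 CPM and the lowest EAE value was 398 CPM. Its fitted log2 fold change of 0.17 (interval -0.22 to 0.55, edgeR adjusted p = 0.804) was smaller than the 0.53 without run (adjusted p = 0.0455), so the call for Cldn11 depends on whether run is in the model. In run 2 alone, the 2 EAE libraries stood at 398 and 482 CPM of Cldn11 beside 324 CPM in the naive library.

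The other members overlapped between EAE and naive libraries. Mbp was at 4790.1 and 4246 CPM in naive Il12rb2fl/fl and 5037 CPM in naive NestinCre/+Il12rb2fl/fl libraries, a log2 fold change of -0.25 (interval -0.71 to 0.21). Mag, at 1553, 1353 and 1345 CPM in naive mice, gave -0.37 (interval -0.78 to 0.05, edgeR adjusted p = 0.517). Mog at 1099, 1206 and 1243 CPM gave -0.10 (interval -0.49 to 0.29). These intervals were about 2 times as wide as those of the genotype comparison. Cnp (-0.31, interval -0.89 to 0.26), Mal (0.16, -0.43 to 0.75) and Ugt8a (-0.08, -0.68 to 0.52) also lay within wide intervals.

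In naive mice the genotypes were compared within run 3, where the Il12rb2fl/fl and the NestinCre/+Il12rb2fl/fl group had 1 library each and were assumed to vary like the other groups. edgeR called 0 of 13581 genes, with 345 under an unadjusted p of 0.05, and DESeq2 called 0. Among the members, Cldn11 at 249.6 against 339 CPM had the largest value, a log2 fold change of 0.54 (interval 0.15 to 0.92, adjusted p = 1). However, naive Il12rb2fl/fl replicate 2, from run 2, lay at 324 CPM. The test of whether the genotype difference itself changed with EAE also called 0 genes in edgeR (643 under an unadjusted p of 0.05) and 5 (0.0368%) in DESeq2, none of them a member. Mbp had the smallest p of the members there, with a log2 difference of -0.58 (interval -1.10 to -0.06, unadjusted p = 0.0308, adjusted p = 1), and Opalin had -0.68 (interval -1.53 to 0.17). A different genotype effect in EAE and naive mice was thus not shown for any member.

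Other genes of the sheath and of its lipids were read from lists of 20 structure genes and 30 lipid genes, all of them tested. In the genotype comparison in EAE, the structure genes had a median log2 fold change of 0.04. Of these genes 1 was called higher and 0 lower, beside 184 higher and 38 lower of all 12704 genes (1.75%). The called structure gene was Hapln2, which encodes a link protein of the matrix at nodes of Ranvier. Hapln2 stood at 600.0, 577, 507 and 694 CPM in Il12rb2fl/fl and at 902, 970.3, 807 and 1109 CPM in NestinCre/+Il12rb2fl/fl EAE libraries. The groups did not overlap, and the log2 fold change was 0.66 (SE 0.10, edgeR adjusted p = 0.00441), called in 17 of 17 alternatives. The next structure genes by p were Cd9 (0.33, adjusted p = 0.256), Marcks (0.33, 0.574), Cntnap1 (0.32, 0.586) and Sirt2 (-0.14, 0.618).

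No lipid gene passed in the genotype comparison, against 1.75% of all genes tested, and their median log2 fold change was -0.04. Srebf1, a transcription factor of fatty acid synthesis, had the smallest p, with a log2 fold change of 0.56 (edgeR adjusted p = 0.0704) and a call in 2 of 17 alternatives. It was followed by the desaturase gene Scd1 (0.41, adjusted p = 0.293), the ceramide synthase gene Cers2 (0.29, 0.293), Aspa (-0.26, 0.374) and Sptlc2 (-0.19, 0.470). In EAE against naive, 0 of 20 structure genes and 0 of 30 lipid genes passed in edgeR, against 103 of 13581 genes (0.758%). Under an unadjusted p of 0.05 there were 4 and 10 of them, beside 1519 genes in all. Of the lipid genes 23 lay below 0 and 7 above, with a median of -0.26 where the median of all genes was 0.00 and their quartiles -0.29 and 0.27. None of those with the smallest p passed either, among them Hmgcs1 (log2 fold change -0.93, edgeR adjusted p = 0.0636, called in 6 of 16 alternatives), Lss (-0.79, 0.220), Sqle (-0.61, 0.257) and Fdft1 (-0.54, 0.307). These values depended on the settings. Over the 16 alternatives the highest log2 fold change was -0.20 for Hmgcs1, -0.25 for Lss and -0.0057 for Sqle. The value for Fdft1 came to 0.013 without run in the model. Among structure genes Hapln2 again had the smallest p (0.85, adjusted p = 0.0795, called in 5 of 16 alternatives), ahead of Anln (0.79, 0.243), Pllp (-1.24, 0.336), Jam3 (0.44, 0.420) and Bcas1 (-0.44, 0.453). The log2 fold change of Hapln2 ran from 0.42 to 1.14 over the alternatives. Its naive levels of 524, 680 and 551 CPM lay within the range of the Il12rb2fl/fl EAE libraries (507 to 694 CPM). Only the NestinCre/+Il12rb2fl/fl EAE libraries lay above every naive one.

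Mature oligodendrocytes fell into 4 larger clusters, A to D in order of size, and 2 small ones of 34 and 27 nuclei that are not described, and the members did not vary alike among them. The clusters were built without the members, so their members' levels are described per library without a test. Cluster B, with 5787 nuclei, was low in Opalin. There Opalin stood at 66.5, 52.4, 57.8 and 31.2 CPM in Il12rb2fl/fl EAE libraries, 8.77 to 41.8 CPM in NestinCre/+Il12rb2fl/fl EAE libraries and 55.0 to 138 CPM in naive ones. Compared with the other mature oligodendrocytes of the same library, this was lower by 2.34 to 4.52 on the log2 scale in 11 of 11 libraries. Mal was also lower in cluster B (log2 difference -1.05 to -0.64), while Ugt8a (0.14 to 0.56) and Mbp (0.14 to 0.36) were higher there in 11 of 11 libraries.

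Cluster A, the largest with 10748 nuclei, held Opalin at 442, 396, 460.3 and 344 CPM in Il12rb2fl/fl EAE libraries and at 212, 240.3, 373 and 323 CPM in NestinCre/+Il12rb2fl/fl EAE libraries. The naive libraries were at 710.2 and 571 CPM and at 540.4 CPM. Cluster A made up 53.6% to 61.6% of mature oligodendrocytes in Il12rb2fl/fl EAE, 38.5% to 46.0% in NestinCre/+Il12rb2fl/fl EAE and 59.2% to 61.8% in naive libraries, so its share did not overlap between the EAE groups. The share of cluster B, low in Opalin, did not overlap either. It was 28.4% to 32.2% in Il12rb2fl/fl EAE and 20.8% to 27.1% in NestinCre/+Il12rb2fl/fl EAE libraries. The clusters' shares are parts of 1 whole. The share of cluster A is therefore not independent of cluster D, which held 9.36% to 23.4% in NestinCre/+Il12rb2fl/fl EAE libraries. In Opalin level, replicates 1 and 2 of the NestinCre/+Il12rb2fl/fl EAE group were the lowest and the naive libraries the highest within cluster A as well. In a fit of cluster A alone, chosen after the levels were seen, the genotype difference of Opalin in EAE was -0.51 (edgeR adjusted p = 0.208). Cluster C, with 2402 nuclei and a median UMI count about 0.511 times that of its libraries, had Opalin levels of 369 to 379 CPM and 136 to 307 CPM in the EAE groups.

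**Figure D4:**
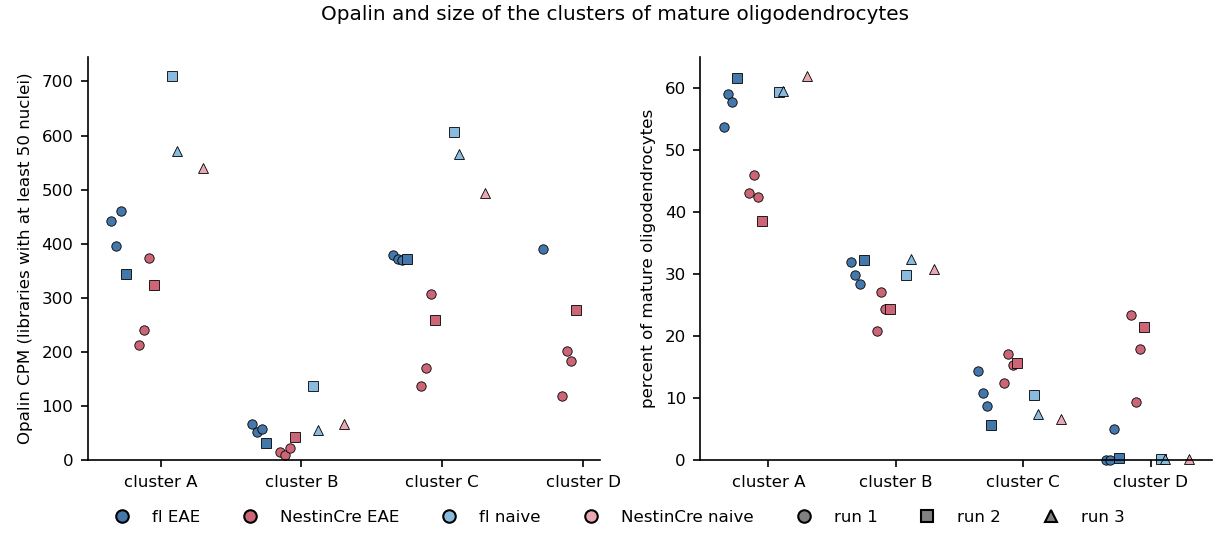
Opalin level in CPM in the mature oligodendrocyte clusters A to D (left, libraries with at least 50 nuclei of the cluster) and the percent of mature oligodendrocytes in each cluster (right), with 1 point per library, groups by colour and runs by marker. Cluster B lies at 138 CPM or below in every library and cluster A at 212 CPM or above, and cluster D holds 9.36% to 23.4% in NestinCre EAE libraries and at most 4.99% in the others.

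Cluster D, with 1558 nuclei, was led by the interferon-induced genes Iigp1, Irgm2 and Ddx60 and by C4b, and its size differed between groups. It made up at most 4.99% of mature oligodendrocytes in an Il12rb2fl/fl EAE library, 9.36% to 23.4% in NestinCre/+Il12rb2fl/fl EAE libraries and at most 0.235% in naive ones. In the 5 libraries with at least 50 such nuclei, Mog was lower than in the other mature oligodendrocytes by 0.22 to 0.46 and Mbp by 0.18 to 0.46 on the log2 scale. Mobp, Cnp and Mal were also lower in each of the 5. Cldn11 was higher in each, by 0.03 to 0.37, while Opalin differed by -0.34 to 0.52. In a fit without cluster D, which was not planned in advance, the genotype difference of Opalin in EAE was -0.59 (edgeR adjusted p = 0.171). The part of cluster D in the Opalin difference was not tested.

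In progenitors 7 of the 9 members had enough UMIs to be tested for the genotype difference in EAE, and Mog and Opalin did not. edgeR called 0 of these 7, with 0 under an unadjusted p of 0.05, against 64 of 6571 genes (0.974%), and DESeq2 called 31 genes (0.472%) and 0 members. Ugt8a, the member with a progenitor level of its own, had a log2 fold change of 0.11 (interval -0.23 to 0.46, adjusted p = 0.981). The newly formed stage was not tested, as NestinCre/+Il12rb2fl/fl EAE libraries held 2 to 4 such nuclei each.

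Outside the lineage the members' UMIs were read as a background level, whose source was not tested. Granule cells held 6.52% to 12.9% of a library's member UMIs, with a summed level of 244 to 722 CPM. As a median, their level was 4.71% of the mature level for Mbp, 2.65% for Mog, 3.02% for Mag, 3.41% for Mobp, 4.09% for Opalin and 2.17% for Ugt8a, but 8.80% for Cldn11, 14.0% for Mal and 24.3% for Cnp. The proportions of the members also differed between classes. Per 100 Mbp UMIs, mature oligodendrocytes held a median of 5.54 UMIs of Cnp, 10.1 of Mal and 10.6 of Cldn11, whereas granule cells held 24.7, 27.6 and 22.8. For Mog (28.4 and 15.1), Mag (32.4 and 19.6), Mobp (52.2 and 35.4) and Ugt8a (18.4 and 8.45) granule cells held fewer, and Opalin (6.45 and 5.50) was closest. Microglia resembled granule cells with 30.3 of Cnp and 29.5 of Mal but not with 35.8 of Mag, and excitatory neurons held 31.6 of Ugt8a.

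**Figure D5:**
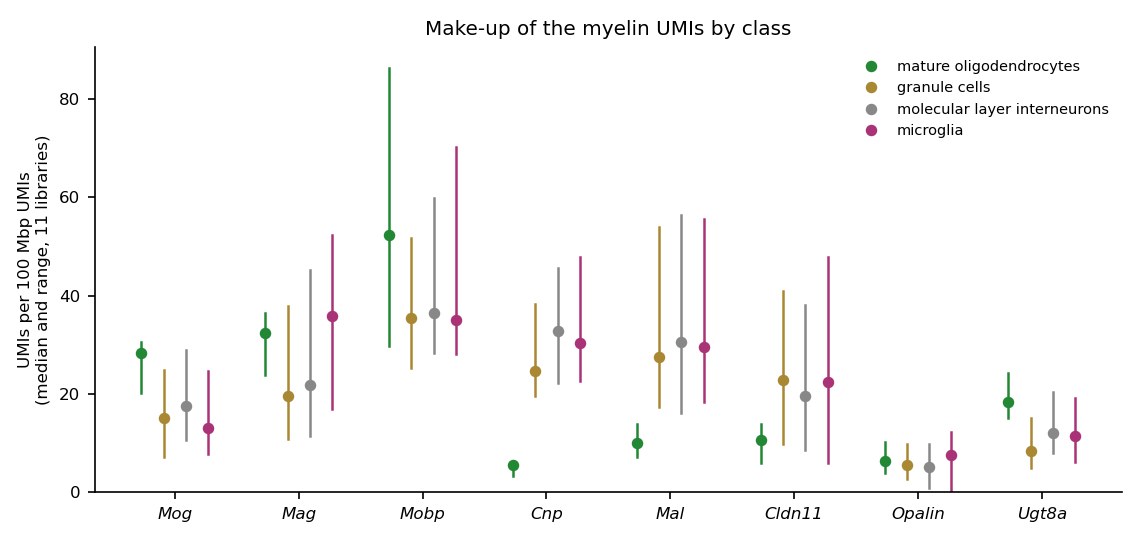
UMIs of 8 members per 100 Mbp UMIs in mature oligodendrocytes, granule cells, molecular layer interneurons and microglia, with medians over 11 libraries as points and their range as lines. The medians of Cnp, Mal and Cldn11 lie higher in the other 3 classes than in mature oligodendrocytes, and those of Mog, Mobp and Ugt8a lie lower. Mag lies lower in granule cells and interneurons but higher in microglia (35.8 against 32.4).

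Between the genotypes in EAE, no difference was shown in the members' levels in granule cells or in the share of mature oligodendrocytes. In granule cells edgeR called 0 of 9 members (0 under an unadjusted p of 0.05), against 194 of 15295 genes (1.27%), and DESeq2 called 309 genes (2.02%) and 0 members. Mbp in granule cells was at 187, 185, 219 and 121 CPM in Il12rb2fl/fl EAE libraries and 137, 188, 182 and 175 CPM in NestinCre/+Il12rb2fl/fl EAE libraries, with 226, 262 and 244 CPM in naive ones. The EAE groups overlapped, and the log2 fold change was -0.06 (interval -0.33 to 0.22, adjusted p = 0.970). That interval was the narrowest of the 9 members. Those of Mog (-0.99 to 1.30), Mal (-1.14 to 1.31) and Opalin (-0.44, -1.70 to 0.82) were wide, so equal levels were not shown either. Over 10 further classes, 42 tests of a member in a class gave 0 calls in edgeR and 0 in DESeq2, with 2 under an unadjusted p of 0.05, where 1.69% of all 61883 gene and class pairs were called. B cells, with 472 of 762 genes called, made up much of that share, which was 0.941% without them. The median log2 fold change of all B cell genes was 0.39, so the scaling of these small sums is in doubt and their calls are not relied on.

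Mature oligodendrocytes made up 10.8%, 9.69%, 15.4% and 6.87% of nuclei in Il12rb2fl/fl EAE libraries and 10.4%, 11.3%, 12.7% and 18.2% in NestinCre/+Il12rb2fl/fl EAE libraries, and 20.5%, 11.9% and 10.7% in naive ones. The EAE groups overlapped, and the difference of 2.45 percentage points (10.7% ± 3.57 against 13.2% ± 3.51, SD, n = 4 each) had p = 0.371 in a two-sided exact permutation test. Within run 1 the difference was -0.515 percentage points (exact p = 0.9, n = 3 each). Across the 11 libraries the Mbp level of granule cells and the share of mature oligodendrocytes had a Pearson r of 0.389 (permutation p = 0.237) and a Spearman rho of 0.391 (permutation p = 0.236). Within run 1 r was 0.672 (exact permutation p = 0.119, n = 6), and without the 2 libraries farthest from the median share it was 0.574 (permutation p = 0.0986, n = 9). With Mbp counted per 1000 granule nuclei in place of CPM, r was -0.0504 (permutation p = 0.894). A relation between the Mbp level of granule cells and the share of oligodendrocytes was thus not shown at this number of libraries.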

How the data were processed

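Nuclei of 11 libraries were sequenced with the 10x 3′ assay. The authors aligned reads to GRCm39 with Cell Ranger (7.0.0 for run 1 and 6.0.2 for runs 2 and 3, per the file headers), counting intronic reads, and deposited filtered matrices of raw UMI counts per gene and nucleus. Intronic counting favours long genes, and the 3′ assay cannot separate isoforms. From these counts, barcodes with under 200 genes (run 1) or 500 (runs 2 and 3) or over 5% mitochondrial UMIs were left out. Doublets were scored by simulated doublets, and the top-scoring 10.5% to 18.4% per library were left out (0.8% per 1000 barcodes), with clusters of over 40% such nuclei. Nuclei were clustered on 40 components of 3000 variable genes (scanpy 1.11.5, a Python version of Harmony over libraries, Leiden) without myelin genes, and a cluster was named from at least 3 markers. UMIs were summed per library and class and tested with edgeR 4.0.16 (filterByExpr, TMM, robust quasi-likelihood, Benjamini-Hochberg over all genes). Groups were tested with sequencing run as covariate, and with DESeq2 1.42.0 as an alternative. Members and lists were chosen with earlier results of these data known. Named genes were the 9 members, the 5 genes with the smallest p per list and comparison, and the 5 genes most like the members. Of these named genes, 2 are not reported here. Intervals cover counting error and the spread between libraries only. Statistical steps were tested on simulated data.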

Additional observations from a re-analysis of the deposited data

Results flagged for a closer look

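Within groups of 4 libraries, 56 sets of member values were examined for a library far from its group, and 4 held one, where chance gives about 1 in 20. In mature oligodendrocytes, Il12rb2fl/fl EAE replicate 4, the one library of its group from run 2, was low for Mog (1031 CPM) and for Mag (1219 CPM). In progenitors, NestinCre/+Il12rb2fl/fl EAE replicate 2 was high for Cnp (54.1 CPM) and Il12rb2fl/fl EAE replicate 3 was high for Cldn11 (46.7 CPM). Both progenitor values rest on few UMIs.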

How the results depend on the processing

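Of 821 member effects in mature oligodendrocytes, progenitors and granule cells under other settings, 765 kept direction and side of the threshold, 52 changed sign with no call on either side, 22 of them by more than the standard error, and 4 became calls: Opalin in both comparisons with DESeq2 and, for EAE against naive, Opalin and Cldn11 without run. Of 330 effects of other named genes, 314 kept both, 15 became calls, and Fdft1 for EAE against naive turned to 0.013 without run. Members called numbered 1 with DESeq2 in both comparisons and 2 without run. Genes called in mature oligodendrocytes for the genotype in EAE (222) were 131 in the largest cluster alone (chosen after seeing the data) and 75 to 252 with a library left out, lowest without Il12rb2fl/fl replicate 1. For EAE against naive (103) they were 160 with DESeq2, 218 without the low-count filter, 158 without run and 39 to 187 with an EAE library left out. The interaction (0 genes) gave 5 with DESeq2, 6 without the filter, 1 in the largest cluster and 0 to 3 with an EAE library left out. Genotype in naive mice stayed at 0. For these 3 comparisons, fits without a naive library could not be made. Progenitors (64) gave 31 with DESeq2 and 40 to 76 with a library left out. Granule cells (194) gave 309 with DESeq2 and 29 to 198 with a library left out. The other classes gave 0 to 1 call, Opalin in microglia without Il12rb2fl/fl replicate 4. Leaving out libraries moved the difference in the share of mature oligodendrocytes to 0.763 to 4.03 points, and run 1 alone gave -0.515. The correlation with Mbp per 1000 granule nuclei was -0.0504. The causes were not tested. With the replicate number as a block, Opalin for the genotype in EAE was -0.60 (edgeR adjusted p = 0.127) and granule cells gave 120 genes. Same-numbered run 1 libraries had deviations correlated by -0.118, 0.126 and -0.0079 in mature oligodendrocytes, and not every library was closest to its own number, so the numbers are not taken as a pairing. Precision was limited by 3 naive libraries and by few progenitor and newly formed nuclei.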
